A study of Homo sapiens with 30 samples.

Results

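In 5 established human breast cancer cell lines treated with bone morphogenetic protein 4 (BMP4), 93 of 41000 array probes, carrying 89 gene names, rose in every line between 30 min and the hours that followed and did not belong to 23 named BMP targets that were left out (ID1 to ID4, SMAD6, SMAD7, BAMBI, HEY1, HES1, ATOH8, MSX1, MSX2, DLX2, DLX3, DLX5, DUSP2, MAP3K5, GPR30, SAMD11, EDN2, GATA3, SNAI2 and RUNX2). The members were chosen by the authors' log2 ratios of BMP4 over vehicle. A probe was kept when the mean ratio at 3, 6, 12 and 24 h lay above the ratio at 30 min in all 5 lines, when that difference, called the late rise here, averaged at least 0.4 over the lines, and when the spot was well above background in at least 1 of both channels on all 30 arrays. Since the late rise selected the members, its size is described and not tested. The probes just inside the threshold were ENST00000283964 at 0.4013, RBM38 at 0.4023 and an unnamed probe at 0.4031. Just outside lay ZDHHC20 at 0.3999 and ZNF234 at 0.3994.

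The 30 two-colour arrays held 1 array for each combination of cell line (ZR-75-30, SK-BR-3, HCC1954, HCC1419 and MDA-MB-361) and length of treatment, which ran from 30 min and 1 h over 3 h and 6 h to 12 h and, at the longest, 24 h. On each array the Cy5 channel carried RNA of cells given recombinant human BMP4 and the Cy3 channel RNA of cells of the same line given vehicle for the same time. Triplicate treatments were pooled before hybridization, so that 5 lines, and not repeated cultures of 1 line, are the replicates of a time point. Dyes were never swapped, and a ratio set against 0 can therefore hold a dye bias of its probe, whereas differences between times do not hold a bias that is the same on all arrays. As a check of identity, 9 of 14 probes for epithelial markers (KRT8, KRT18, KRT19, CDH1, ERBB2, ESR1, GATA3) were well above background in the vehicle channel on all 30 arrays, against 1 of 9 probes for markers of other cells (CD68). Of the others, the collagen gene COL1A1 was well above background in that channel on 28 arrays, the VIM probes on 20 and 17 and PECAM1 on 6. The PTPRC and COL1A2 probes were so on 0. Among the epithelial markers the CDH1 probe was so on 24 arrays, the ESR1 probes on 28, 24 and 7, and a KRT18 probe on 10. No late rise of a marker probe passed the test in either list (range from -0.19 to 0.14 for the epithelial markers and from -0.11 to 0.05 for the others).

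BMP4 is a secreted ligand of the transforming growth factor beta superfamily. It binds receptor serine/threonine kinases that phosphorylate SMAD1, SMAD5 and SMAD9, which enter the nucleus with SMAD4 and switch on genes such as the ID family of helix-loop-helix inhibitors. Other genes respond later, directly or through the products of the early targets, and in epithelial cells the pathway is known for effects on proliferation, survival and differentiation.

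The promoters of 4 members on which the results below turn were looked up, since JUNB and OVOL1 passed the test at 1 h, S100P passed it within the late window and SKIL encodes a repressor of SMAD proteins. Of these, JUNB, S100P and SKIL had an entry in the RefSeq promoter table (GRCh38.p14), and the 250 bases before their start are shown 5′ to 3′ with each GGCGCC, a GC-rich hexamer known as a binding sequence of SMAD1 and SMAD5, in capitals. The JUNB window is chr19:12791236-12791485, the S100P window chr4:6693628-6693877 and the SKIL window chr3:170357465-170357714, all on the plus strand.
JUNB: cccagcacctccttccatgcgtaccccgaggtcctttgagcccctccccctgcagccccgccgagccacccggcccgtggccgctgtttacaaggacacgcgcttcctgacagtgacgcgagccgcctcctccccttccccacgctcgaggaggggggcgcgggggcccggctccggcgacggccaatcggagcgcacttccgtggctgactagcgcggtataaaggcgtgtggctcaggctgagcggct
S100P: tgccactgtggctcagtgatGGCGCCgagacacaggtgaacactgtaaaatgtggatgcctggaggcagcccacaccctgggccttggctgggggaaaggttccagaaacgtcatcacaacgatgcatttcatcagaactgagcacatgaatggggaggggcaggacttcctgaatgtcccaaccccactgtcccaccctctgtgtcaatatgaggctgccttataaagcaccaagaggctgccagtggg
SKIL: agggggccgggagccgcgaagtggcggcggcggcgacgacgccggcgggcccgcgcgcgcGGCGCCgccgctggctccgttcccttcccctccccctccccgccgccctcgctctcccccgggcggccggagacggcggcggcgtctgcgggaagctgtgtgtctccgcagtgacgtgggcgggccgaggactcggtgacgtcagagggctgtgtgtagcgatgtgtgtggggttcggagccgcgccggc
The hexamer, which is its own reverse complement, occurred once in the S100P and once in the SKIL window and 0 times in the JUNB window. Over the members, 65 current gene symbols could be assigned, and 50 of them had 87 promoter entries, of which 28 (32.2%) held GGCGCC, against 16.4% of all 35116 promoters of that length. The member promoters were also richer in G and C (median 66.4%) than all promoters (58.0%), and the part of base composition in this share was not tested. The palindrome GTCTAGAC, known as a binding sequence of SMAD3 and SMAD4 and likewise equal on both strands, was found in 0 of 87 member promoters and in 0.182% of all promoters.

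In the sample values that follow, ratios are loess-normalized log2 ratios of BMP4 over vehicle unless the authors' values are named. Taken per array, the median ratio of the 93 members was -0.05 ± 0.05 (SD, n = 5 lines) after 30 min and 0.11 ± 0.07 after 1 h. It reached 0.23 ± 0.05 by 3 h and 0.28 ± 0.10 by 6 h, and stood at 0.39 ± 0.22 and 0.44 ± 0.18 on the arrays of 12 h and 24 h. The 15 probes of the left-out targets that meet the same rule stood higher at each time, with 0.14 ± 0.11 after 30 min, 0.55 ± 0.25 after 1 h and 0.93 ± 0.16 by 3 h, and with 1.04 ± 0.24 on the 24 h arrays. Both sets were chosen on their late rise, so these medians describe them only. The members had their largest mean ratio at 24 h in 45 cases and at 12 h in 27, while 9 peaked at 3 h, 6 each at 1 h and 6 h, and 0 on the first arrays.

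**Figure D1:**
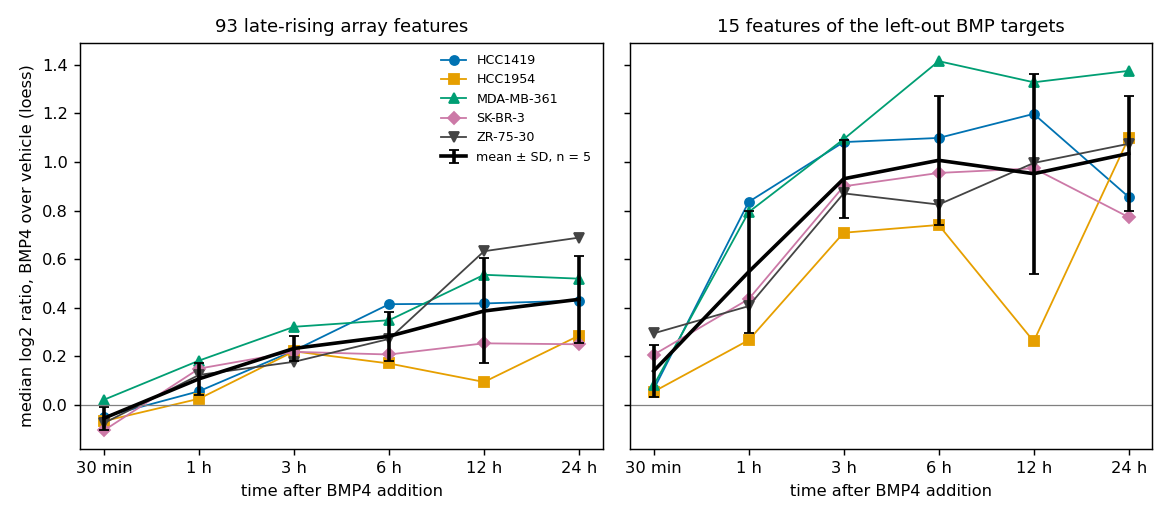
Median log2 ratio of BMP4 over vehicle (loess, y axis) at the 6 time points (x axis, evenly spaced) for the 93 members (left) and the 15 probes of left-out BMP targets that meet the same rule (right). Coloured lines are the 5 cell lines and the black line is their mean ± SD (n = 5). The member median goes from -0.05 at 30 min to 0.44 at 24 h, while the left-out targets reach 0.93 by 3 h.

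The parts of the late rise are described here on the arrays that chose the members. No counterpart over all probes was worked out, and ratios set against 0 can hold a dye bias. The mean ratio over 3 to 24 h was above 0 for 89 of the 93 members, and for 61 of them the mean at 30 min was below 0. In 22 members the ratio at 30 min lay farther below 0 than the later ratio lay above it. Split by channel after scaling between arrays, the Cy5 (BMP4) level was higher late than at 30 min in 89 members. The median difference was 0.43 on the log2 scale. The Cy3 (vehicle) level differed by a median of -0.01 and was lower late in 47. The Cy5 part of the rise was larger than the Cy3 part in 76 members. Both channels were lower late, Cy3 more so, for JUNB (Cy5 -0.06, Cy3 -0.58) and NEAT1 (-0.50 and -1.04). The same held for ITSN1 (-0.17 and -0.53) and the second MALAT1 member (-0.615 and -0.934). The first MALAT1 member had 0.03 in Cy5 and -0.46 in Cy3.

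Cell lines contributed unequally. By the authors' values the median late rise of the members was 0.63 in SK-BR-3, 0.62 in ZR-75-30, 0.57 in HCC1419, 0.50 in MDA-MB-361 and 0.29 in HCC1954. HCC1954 had the smallest rise of the 5 lines for 34 members and the largest for 1, whereas SK-BR-3 had the largest for 29. In SK-BR-3 the lower quartile of the members was -0.58 on the 30 min array by the authors' values, against -0.37 in ZR-75-30, the next lowest line, although the member medians of both arrays were near each other (-0.20 and -0.17). When 1 h took the place of 30 min, the median SK-BR-3 rise was 0.35 and 71 of the 93 members still lay above 0. Over the other 4 lines 64 members kept a mean rise of at least 0.4. The NEUROG3 probe, which by the authors' values had a ratio at 30 min of -2.20 in SK-BR-3 and of -1.06 to 0.76 in the other lines, correlated with 4 members at r of 0.8 or more across the 30 arrays (OTUD7A, BX089650, AW444553 and THC2672076, chosen after their values were seen), as did 614 of the 20360 probes that were well above background on all arrays. These correlations share arrays and lines and are a description, and the part of this pattern in the late rise was not tested.

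Slides were shared between some times. In HCC1419 the 30 min array shared its slide with 3 h and 6 h, and within that slide the members had a median rise of 0.46 (78 of 93 above 0, all probes 0.01). In ZR-75-30 it shared the slide with 3 h and 12 h, with a median of 0.59 (91 of 93, all probes -0.02). These arrays also chose the members, which had to rise in each of these lines, so the values are a description and the part of the slide in the late rise was not tested. In the other 3 lines no later array lay on the slide of 30 min, and the late rise and the slide cannot be told apart there. In bulk RNA of this kind a higher level in all cells and a larger share of expressing cells cannot be told apart either.

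Among components of the SMAD pathway 2 genes were members. SMAD1, the receptor-activated transcription factor of BMP signalling itself, had a late rise of 0.97 in ZR-75-30, 0.81 in MDA-MB-361, 0.40 for the line SK-BR-3, 0.34 in HCC1419 and 0.31 in HCC1954. ZR-75-30 reached ratios of 1.80 at 12 h and 1.43 at 24 h, times at which no other line was above 0.65. A second SMAD1 probe, not a member, averaged 0.17 and lay above 0 in 5 of 5 lines.

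SKIL encodes SnoN, which binds SMAD complexes and represses their targets. Its late rise was 0.78 in HCC1419, 0.59 in MDA-MB-361, 0.48 for the line SK-BR-3, 0.31 in HCC1954 and 0.31 in ZR-75-30. The mean ratio was -0.03 ± 0.40 at 1 h, 0.54 ± 0.28 at 3 h and 0.46 ± 0.25 at 24 h (SD, n = 5). The cDNA probes BC041913 and H40632, which lie 4247 and 4087 bases from the SKIL probe on chromosome 3 (hg18), were also members, and BC041913 went from 0.21 ± 0.22 at 30 min to a mean of 1.1 ± 0.19 at 3 h. The files list BC041913 in the direction of the SKIL probe and H40632 in the opposite one. Of 36 other probes for negative regulators of SMAD signalling, among them SMURF1, SMURF2 and SKI, 0 passed the limma test of the late rise in either direction (median 0.00), beside 0.0829% of all probes called higher. The probes counted here and in the gene lists below are those the rule left over on the same contrast, so nothing is read from a count of 0.

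**Figure D2:**
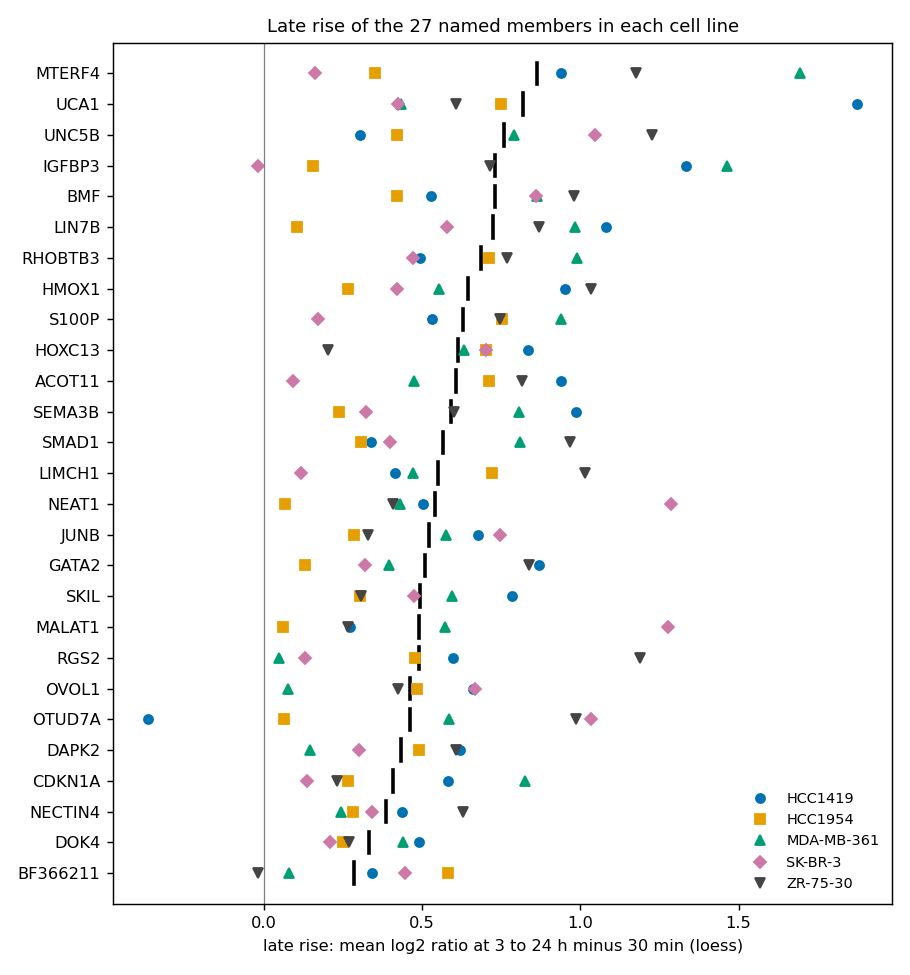
Late rise (mean log2 ratio at 3 to 24 h minus 30 min, loess, x axis) of the 27 named members (y axis, sorted by mean). Symbols are the 5 cell lines and the black bar is their mean. All lines lie above 0 for 24 of the 27 members, and the exceptions are IGFBP3 in SK-BR-3, OTUD7A in HCC1419 and BF366211 in ZR-75-30.

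The members with the largest late rise by the authors' values were 2 expressed sequence tags close to probes of ID genes. Distances here and below run from probe to probe. Whether a tag lies inside the gene next to it was not looked up. CN479126, on chromosome 20 at 29657031 to 29657090 (hg18), lies 729 bases from the ID1 probe and had, by the authors' values, a late rise of 1.85 in SK-BR-3 and of 1.33 to 1.5 in the other lines. AW327568, on chromosome 1 at 23757351 to 23757410, lies 843 bases from the ID3 probe and had a late rise of 2.20 in MDA-MB-361, 1.86 in ZR-75-30, 1.17 in HCC1419, 0.85 in HCC1954 and 0.66 in SK-BR-3. CN479126 was thus closer between lines than AW327568. Both tags are listed in the direction opposite to the ID probe close to them. The ID1 probe itself had a rise of 1.06 and the ID3 probe of 0.96 on the same scale.

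The tag BF366211 lies 30760 bases from the SMAD7 probe on chromosome 18, again in the opposite direction. The DLX1 probe, for a homeobox factor, lies 10290 bases from the nearest DLX2 probe on chromosome 2. In all, 4 members lay within 50 kb of a left-out target and 20 lay within 50 kb of another member in 8 groups. On chromosome 2, 2 MTERF4 probes and PASK, a PAS-domain kinase, formed a group in which, by the authors' values, non-member probes of MTERF4 and PASK had late rises of 0.64 and 0.35, and PPP1R7 beside them of 0.18. Of the probes there that were not well above background on all arrays, a further MTERF4 probe gave 0.59, THC2632923 0.39 and the SNED1 probes 0.65 and -0.01. At HOXC13, a homeobox factor of the HOXC cluster, the tag THC2701797, listed in the opposite direction, was a member at 0.53, and by the authors' values the HOXC10 probes nearby gave 0.04 and 0.17. HOXC12 and HOXC11, which lie between HOXC13 and HOXC10 and were not well above background on all arrays, gave 0.75 and 0.52.

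Genes of growth arrest and cell death gave 3 of the named members. CDKN1A encodes the cyclin-dependent kinase inhibitor p21. Its late rise was 0.82 in MDA-MB-361, 0.58 in HCC1419, 0.27 in HCC1954, 0.23 in ZR-75-30 and 0.14 in SK-BR-3. In ZR-75-30 the ratio was below 0 at 30 min (-0.41) and again at 12 h (-0.55) and 24 h (-0.54), with 0.48 at 3 h between them, so that 3 h was the only time above 0 in that line. The member probe was dim, and its mean rise was 0.99 by the authors' values and 0.41 after loess with the offset. The second CDKN1A probe gave 0.43 and 0.42 on the same scales but cleared the background on 29 arrays of 30 and was therefore no member. Of 23 other probes for CDK inhibitors and growth arrest genes, 0 were called for the late rise (median 0.06).

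BMF, a BH3-only protein that promotes apoptosis, had a late rise of 0.98 in ZR-75-30, 0.86 in MDA-MB-361, 0.86 for the line SK-BR-3, 0.53 in HCC1419 and 0.42 in HCC1954. Its mean ratio was 0.29 ± 0.37 at 1 h, 0.56 ± 0.25 at 3 h and 0.66 ± 0.24 at 24 h (SD, n = 5). DAPK2, a calcium/calmodulin-dependent kinase of the death-associated family, had a mean late rise of 0.43 ± 0.21 (SD over 5 lines), with the highest value in HCC1419 (0.62) and the lowest in MDA-MB-361 (0.15).

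Transcription factors among the named members were GATA2, HOXC13, JUNB and OVOL1. GATA2, a zinc-finger factor, was a member by 2 probes with mean late rises of 0.51 and 0.69. The first had a late rise of 0.87 in HCC1419, 0.84 in ZR-75-30, 0.40 in MDA-MB-361, 0.32 for the line SK-BR-3 and 0.13 in HCC1954. In HCC1954, the line with the lowest vehicle level of GATA2, the ratio of this probe lay between -0.15 and 0.01 at all 6 times. The second probe had a late rise of 0.14 in HCC1954, and its lowest ratio in any line was 0.21 at 3 h and 0.20 at 24 h. Of 10 probes of the other GATA factors and their cofactors 0 were called (median -0.03). HOXC13 had a late rise of 0.84 in HCC1419, 0.70 in HCC1954, 0.70 in SK-BR-3, 0.63 in MDA-MB-361 and 0.20 in ZR-75-30.

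Secreted and surface proteins formed the next group. IGFBP3, which binds insulin-like growth factors outside the cell, reached a ratio of 1.90 in MDA-MB-361, 1.71 in HCC1419, 1.23 in ZR-75-30, 0.45 in HCC1954 and 0.15 in SK-BR-3 at 24 h. HCC1954 and SK-BR-3 stayed below the other 3 lines at every time from 3 h on, and in SK-BR-3 the late rise after loess was -0.02. The second IGFBP3 probe had a late rise of 0.39 (adjusted p = 0.24, limma over all probes), and 0 of 9 probes for IGF binding proteins including that one were called. UNC5B, a netrin receptor, had a late rise of 0.76 ± 0.40 (SD, n = 5, as for the other late rises given with an error), from 0.30 in HCC1419 to 1.23 in ZR-75-30. SEMA3B, a secreted semaphorin, had a late rise of 0.59 ± 0.32, and NECTIN4, a cell adhesion molecule, of 0.39 ± 0.15.

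Long non-coding RNAs included UCA1, MALAT1 and NEAT1. UCA1 had the largest ratio of the named members, 2.80 in HCC1419 at 24 h. At that time it was 1.40 in ZR-75-30, 0.98 in HCC1954, 0.94 in MDA-MB-361 and, as the lowest, 0.57 in SK-BR-3. The late rise of UCA1 was 1.87 in HCC1419 and from 0.43 to 0.75 in the other lines. MALAT1 and NEAT1 are nuclear RNAs. MALAT1 had a late rise of 1.28 in SK-BR-3 and of 0.06 to 0.57 elsewhere. In NEAT1 the values were 1.29 and 0.07 to 0.50, so SK-BR-3 was highest for both. In SK-BR-3 NEAT1 went from -0.75 at 30 min to 1.11 at 1 h, above each later value, and with 1 h in place of 30 min the SK-BR-3 rise by the authors' values was -0.51 for NEAT1 and -0.89 for MALAT1.

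The remaining named members were enzymes, adaptors and regulators of G proteins. MTERF4, a mitochondrial transcription termination factor family protein, had a late rise of 1.69 in MDA-MB-361, 1.18 in ZR-75-30, 0.94 in HCC1419, 0.35 in HCC1954 and 0.16 in SK-BR-3. The second MTERF4 member gave 0.62, 0.50, 0.64, 0.09 and 0.56 in the same order, so the order of lines differed between the probes. LIN7B, a PDZ scaffold protein, stood at 0.92 ± 0.33 at 3 h and at 0.93 ± 0.35 at 24 h. RHOBTB3 had a late rise of 0.69 ± 0.21, with every line at or above 0.47. HMOX1, the haem-degrading oxygenase, had a late rise of 0.65 ± 0.33 and ACOT11, an acyl-CoA thioesterase, of 0.61 ± 0.33. LIMCH1, an actomyosin regulator, had one of 0.55 ± 0.34 and DOK4, a docking protein of receptor kinases, of 0.33 ± 0.13. Other probes of these genes, no members, had smaller mean rises. They gave 0.13 for LIMCH1 (3 of 5 lines above 0) and 0.145 for DOK4 (4 of 5). For ACOT11 they gave 0.16 (5 of 5) and, for a probe well above background on 0 arrays, -0.01.

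RGS2, which speeds GTP hydrolysis by G-protein alpha subunits, had a late rise of 1.19 in ZR-75-30, 0.60 in HCC1419, 0.48 in HCC1954, 0.13 in SK-BR-3 and 0.05 in MDA-MB-361. Of 26 other probes for regulators of G-protein signalling, 1 of 2 RGS16 probes fell (late rise -0.37 ± 0.07 SE, n = 5 lines, adjusted p = 0.0405, limma with the line as block), while the other gave -0.16 and was not called. OTUD7A, a deubiquitinase, was a member whose second probe had the opposite sign (-0.10 against 0.46 after loess). Its ratios in SK-BR-3 ran from -1.65 at 12 h to 1.34 at 1 h, and in HCC1419 the late rise was -0.36 after loess. For WNT ligands (24 probes) and progestin and adipoQ receptors (17 probes) there was no member and no call of the late rise in either direction.

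The ratios on the 5 arrays at 1 h took no part in choosing the members and allow a test. These arrays did count in the background filter, which a probe could pass by the Cy5 channel alone. Of the 93 members, 3 were higher with BMP4 at an adjusted p under 0.05 (limma, ratio against 0), a share of 3.23% beside 0.544% of all probes and 0.835% of the probes well above background on all arrays. No member was lower, beside 0.254% of all probes. At an unadjusted p under 0.05 there were 17 members, all higher, beside 5822 of the 41000 probes, of which 2796 were higher, and 66 of the 93 ratios lay above 0 (median 0.11, all probes 0.00). When differences between the lines were removed first, as a block, 10 members were called, beside 1.2% of all probes called higher. A 1 h ratio is set against 0 and not against another time, so the block pairs nothing here. It leaves the spread between lines out of the error, and the 7 further calls are therefore not read as results. These were AW327568, DLX1, THC2701797, CN479126, LIN7B, BC041913 and BMF.

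JUNB, a component of the AP-1 transcription factor, had ratios at 1 h of 1.49 in HCC1419, 1.32 in MDA-MB-361, 0.89 in ZR-75-30, 0.69 in HCC1954 and 0.45 in SK-BR-3. All 5 lines were above 0, with a mean of 0.97 ± 0.11 (SE, n = 5, limma adjusted p = 2.68e-05). At 30 min, however, the ratio already stood between 0.28 and 0.50 in the 5 lines, and a dye bias of the probe and an early response cannot be told apart in that offset. In SK-BR-3 the ratio at 1 h did not exceed that at 30 min (0.46). The second JUNB probe, no member, had a mean late rise of 0.33, above 0 in 4 of 5 lines, beside 0.52 for the member.

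OVOL1, a zinc-finger transcription factor of epithelial differentiation, had ratios at 1 h of 1.44 in HCC1419, 1.21 in MDA-MB-361, 0.94 in ZR-75-30, 0.85 in HCC1954 and 0.44 in SK-BR-3. Its mean was 0.98 ± 0.12 (pooled limma SE, 5 lines, adjusted p = 4.73e-05), while at 30 min, a time the rule used, the lines lay between -0.10 and 0.18. Later it stood at 0.52 ± 0.17 (SD) at 3 h and 0.54 ± 0.16 at 24 h, below 1 h in every line except SK-BR-3, where 3 h to 24 h were all higher than 1 h. Its second probe, no member, had a mean late rise of 0.15, beside 0.46 for the member.

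BF366211, the tag near SMAD7, had ratios at 1 h of 1.04 in MDA-MB-361, 0.61 in HCC1419, 0.59 in ZR-75-30, 0.58 in HCC1954 and 0.54 in SK-BR-3. Its mean was 0.67 ± 0.08 (pooled limma SE, 5 lines, adjusted p = 1.91e-05). The SMAD7 probe, a left-out target encoding an inhibitory SMAD, was also called at 1 h, at 0.67 ± 0.10 (SE, limma adjusted p = 0.000698). At 30 min BF366211 was at 0.30 in ZR-75-30, 0.19 in MDA-MB-361, 0.01 in HCC1419, -0.18 in SK-BR-3 and -0.22 in HCC1954.

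**Figure D3:**
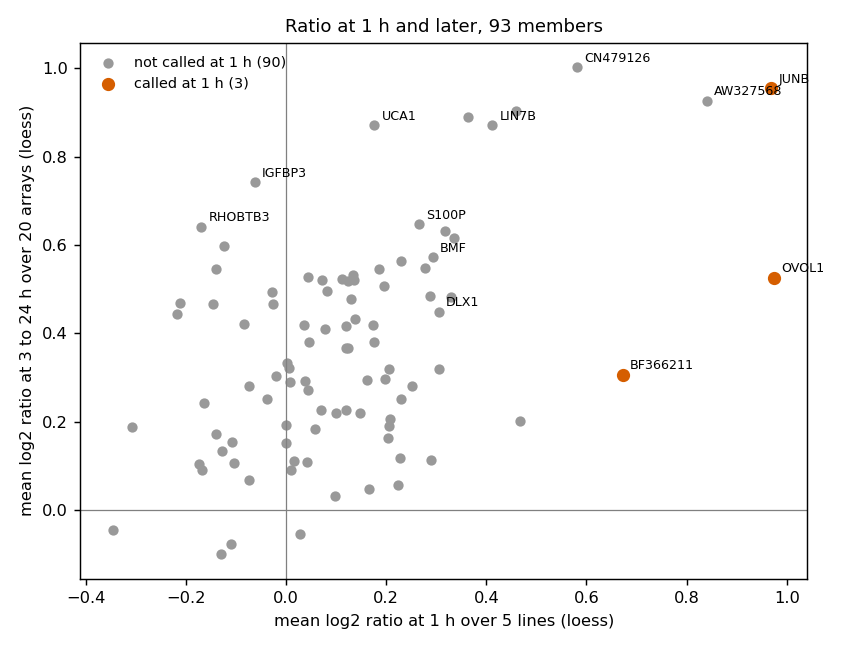
Mean log2 ratio at 1 h over the 5 lines (x axis) against the mean over the 20 arrays at 3 to 24 h (y axis) for the 93 members, both after loess. Orange points are the 3 members called at 1 h (JUNB, OVOL1, BF366211). OVOL1 and BF366211 were lower late than at 1 h, JUNB was at nearly the same height, and UCA1, IGFBP3 and RHOBTB3 were at or below 0.18 at 1 h.

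Within the late window the members were tested for differences among 3, 6, 12 and 24 h, while the rule used the mean of these times. By the moderated F test with the line as block, 1 member passed, and it was the only probe called on the array (0.00244% of all probes). A directional test, the mean of 12 and 24 h minus the mean of 3 and 6 h, called the same member, beside 0.00488% of all probes that were higher and 0% that were lower. At an unadjusted p under 0.05 there were 27 members, all of them higher late, beside 1897 of the 41000 probes, of which 1108 were higher, and 80 of the 93 differences lay above 0 (median 0.12, all probes 0.00). For the 15 left-out probes the median difference was -0.08. By the authors' values the SD of all probes at 12 h and 3 h was 0.66 and 0.45 in ZR-75-30 and 0.63 and 0.38 in SK-BR-3. It was 0.50 and 0.32 in MDA-MB-361, 0.35 and 0.33 in HCC1954 and 0.32 and 0.36 in HCC1419. At 24 h and 6 h the SD was 0.47 and 0.36 in ZR-75-30, 0.49 and 0.39 in MDA-MB-361 and 0.38 and 0.35 in HCC1419. HCC1954 had 0.34 and 0.33, while SK-BR-3 had 0.35 and 0.395, so later arrays were not wider in every line. Where later arrays spread wider, choosing members by the late mean favours probes that are high there. The surplus of positive differences among the members is therefore a description, and the part of this choice in it was not tested.

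That member was S100P, a small EF-hand calcium-binding protein. Its ratio at 24 h was 1.60 in ZR-75-30, 1.45 in MDA-MB-361, 1.12 in HCC1954, 0.96 in SK-BR-3 and 0.84 in HCC1419. At 3 h the lines had lain between 0.12 and 0.50. The mean went from 0.31 ± 0.19 (SD, n = 5) at 3 h to 0.47 ± 0.28, 0.61 ± 0.39 and 1.20 ± 0.32 at 6, 12 and 24 h, and the drift was 0.52 ± 0.08 (SE, adjusted p = 0.0464). The call rests on having all of 4 lines, since without HCC1419 the adjusted p was 0.33 (drift 0.56), without HCC1954 0.18 (0.55), without MDA-MB-361 0.64 (0.50) and without ZR-75-30 0.25 (0.44). Without the line as block it was 0.526, at the same drift.

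The members next to S100P did not pass the test. PSCA, a GPI-anchored surface antigen, had a drift of 0.78 ± 0.14 (SE, adjusted p = 0.0726), SEMA3B of 0.48 ± 0.08 (adjusted p = 0.0726), ACOT11 of 0.41 ± 0.08 (adjusted p = 0.104) and UCA1 of 0.73 ± 0.17 (adjusted p = 0.309). PSCA was at -0.07 ± 0.33 (SD) at 3 h and 1.05 ± 0.33 at 24 h. JUNB, OVOL1, SKIL and LIN7B had drifts of 0.24, 0.01, -0.07 and 0.08, none of them called.

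**Figure D4:**
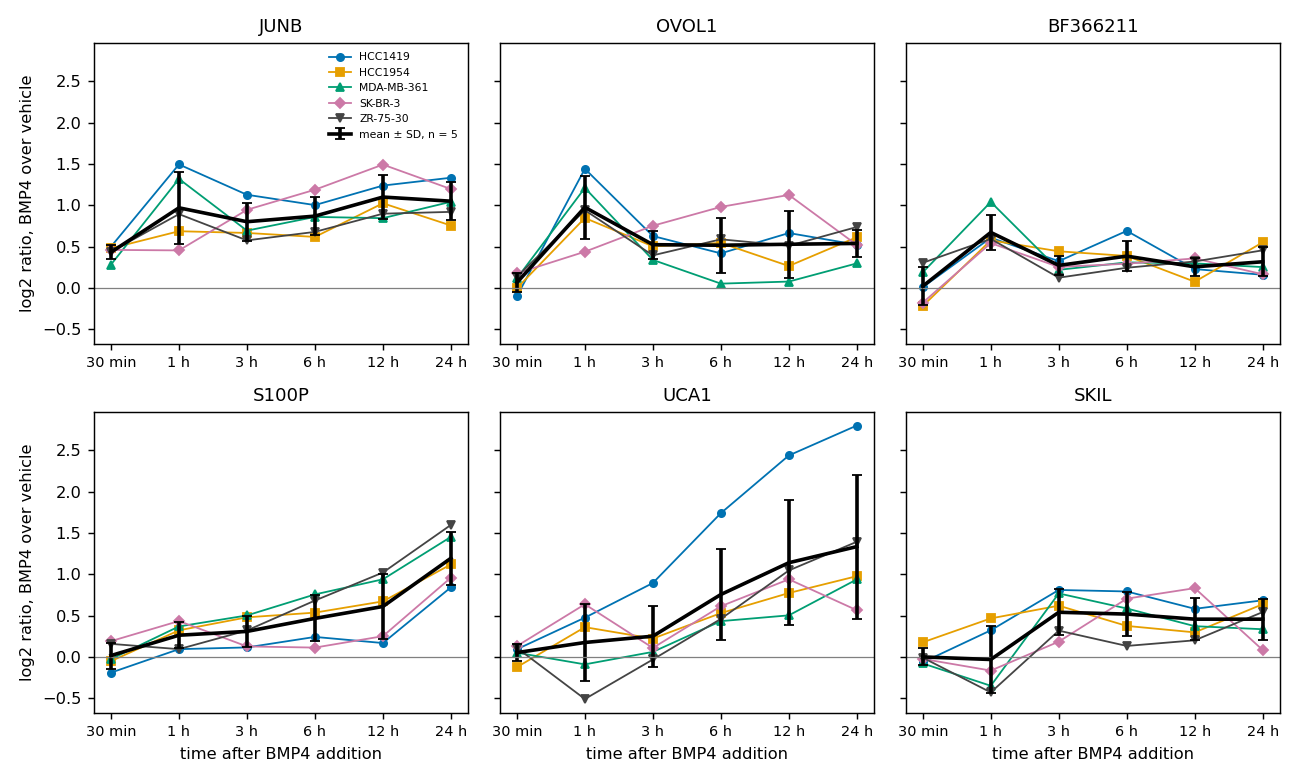
Log2 ratio of BMP4 over vehicle (loess, y axis) at the 6 time points (x axis, evenly spaced) for 6 members. Coloured lines are the 5 cell lines and black is their mean ± SD (n = 5). OVOL1 and BF366211 are highest on average at 1 h, SKIL goes up between 1 h and 3 h, and S100P and UCA1 are highest on average at 24 h, UCA1 with HCC1419 at 2.80.

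For the contrast of the rule itself, 21 of the 93 members passed the limma test of the late rise, beside 0.0829% of all probes. Nothing can be read from that count, since the same arrays chose the members, and it was 1 without the line as block and 34 with array weights. Measured on loess values all 93 mean rises were above 0 (median 0.43), 75 members had a rise above 0 in all 5 lines, and 52 probes met the rule, of which 45 were members.

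The level in vehicle-treated cells, read from the Cy3 channel after scaling between arrays, differed between the lines for 90 of the 93 members (limma F test with time point in the model), beside 73% of all probes. The times of a line served as its replicates here, so the test measures spread between times and not between independent cultures of a line. No slide carried arrays of different lines, and line and slide cannot be told apart in these levels. The members had been required to be well above background, which all probes had not, and the excess over 73% is not read further. JUNB (adjusted p = 0.273), NECTIN4 and SRRM1 were the exceptions. The difference between the highest and the lowest line had a median of 1.79 on the log2 scale and was at least 3 for 19 members.

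S100P had vehicle levels of 16.4 in ZR-75-30, 16.3 in HCC1419, 15.6 in SK-BR-3, 13.9 in HCC1954 and 9.86 in MDA-MB-361 (log2 intensity, means of 6 time points). MDA-MB-361 was the lowest line, and its ratio at 24 h lay between those of HCC1954 and ZR-75-30. UCA1 had levels of 13.3 in HCC1954, 10.6 in HCC1419, 7.94 in ZR-75-30, 7.82 in SK-BR-3 and 7.12 in MDA-MB-361, and the line with the largest late rise was the second in level. IGFBP3 ran from 7.64 in MDA-MB-361 to 12.8 in HCC1954, and MDA-MB-361, the lowest, had the largest rise. For PSCA the levels ran from 8.51 in HCC1954 to 16.4 in HCC1419. Whether the brightest spots of S100P and PSCA were saturated was not examined.

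**Figure D5:**
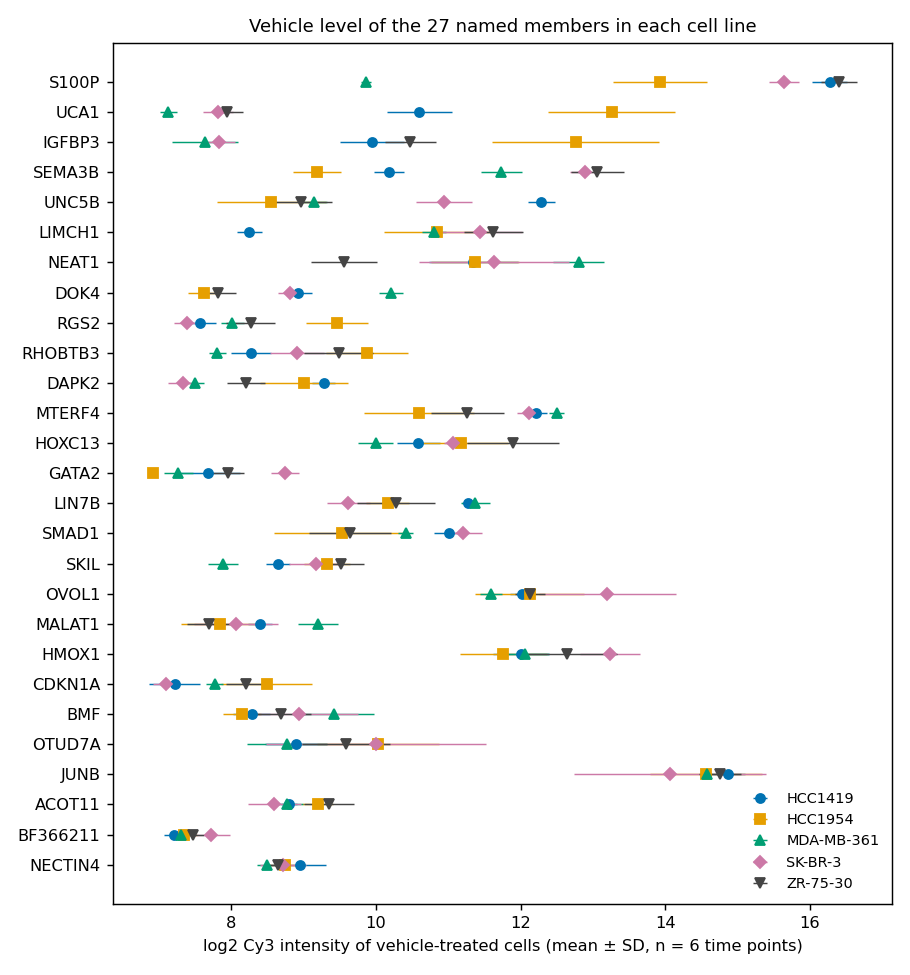
Log2 Cy3 intensity in vehicle-treated cells (x axis) of the 27 named members (y axis, sorted by the difference between highest and lowest line). Symbols are line means over 6 time points and bars are the SD. S100P, UCA1 and IGFBP3 differ by 6.55, 6.13 and 5.12 between lines, and NECTIN4 by 0.46; levels of different probes are not comparable.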

How the data were processed

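RNA of 5 breast cancer cell lines at 6 times was hybridized by the authors to 30 Agilent arrays. Per the file headers, Feature Extraction 9.5.1.1 and build hg18 were used. Mean and background signals are deposited intensity values without normalization, and processed signals are intensity values after background subtraction and dye normalization. The deposited software log ratio is log10 of Cy5 over Cy3, and the authors' series matrix holds its log2 with each array's median at 0. Scanner values were corrected by normexp (offset 50), normalized by loess (limma 3.58.1, R 4.3.3) without the 1639 control spots, and averaged per probe. Outlier spots were set to missing. Of all probes, 40248 had a value on all arrays, every member among them. The number of arrays limits the precision, and 56.3% to 70.8% of probes per array and channel were well above background.

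Ratios at 1 h were tested without a block, and contrasts between times with the cell line as block, using lmFit and eBayes, and p-values were adjusted by Benjamini-Hochberg across the whole array (call at 0.05), after tests on simulated data. Each replicate number is 1 cell line, which pairs the arrays, and deviations from time-point means correlated at a mean r of 0.23 within lines and -0.06 between lines. Named are the 25 members with a symbol and the largest late rise, 1 probe each, and those called at 1 h or in the late window; other names are members or neighbours added for their values. Members, gene lists and tests were chosen with earlier results of these data known. The p-values and SEs at 1 h measure the spread between lines within a time, pooled over all times (24 residual degrees of freedom). For contrasts with the line as block, and for the vehicle level, they measure the spread left after line and time means. Each sample was a pool of cultures of its line. Members were matched to RefSeq symbols by accession (63), symbol (4) or synonym (2), and 24 had no match. Alternatives are given in the closing section. 1 probe just outside the threshold of the rule is not reported here.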

Additional observations from a re-analysis of the deposited data

Results flagged for a closer look

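In 60 groups of 5 lines (the 1 h ratio and the late rise of the 27 named members, and the member median at each time), 6 had a sample whose gap to the next exceeded Dixon's 95% limit, and chance alone flags about 1 group in 20. The late rise of UCA1 was 1.87 in HCC1419, apart from the other 4 lines. At 1 h, the ratio of RHOBTB3 was -1.02 and that of HOXC13 -0.71 in ZR-75-30, both below the other lines. At the same time RGS2 was 0.39 and BF366211 1.04 in MDA-MB-361, and NEAT1 was 1.11 in SK-BR-3, each above the other lines.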

How the results depend on the processing

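The calls of JUNB, OVOL1 and BF366211 at 1 h held under all alternatives run, including each left-out line. The number of members called at 1 h was 10 with the replicate block and from 3 to 4 without 1 line. Members called among 3 to 24 h, 1 as reported, were 0 without the replicate block and with 1 factor per array, 2 by the series matrix and by the software log ratio, 3 without background correction, and 0 to 1 without 1 line. Members called in the late drift, also 1, were 0 without the replicate block and with 1 factor per array, 2 by the series matrix, the software log ratio and the filter on dim probes, 4 without background correction and with array weights, and 0 to 1 without 1 line. Without the SK-BR-3 array at 30 min, an alternative chosen after seeing the data, both counts were 2, with ACOT11 beside S100P. Members called for the late rise were 1 without the replicate block, 3 with 1 factor per array, 34 with array weights and from 1 (without MDA-MB-361) to 16 without 1 line. The set itself held 52 probes by loess, 201 at a threshold of 0.3, 47 at 0.5, 259 with no flag on background, and 90 to 223 without 1 line. The cause of these changes was not tested. With the replicate block BMF and LIN7B were called at 1 h, without it S100P lost its call in the late drift, and no other call of a named member in these 2 tests moved with the block. No called value changed sign. With the slide as a random block all 4 test counts were as reported. The vehicle-level count was 81 to 91. Dim probes carry compressed ratios after the offset of 50, and 5 arrays per time limit every test.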
